A study of Rattus norvegicus with 12 samples.

Results

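The 7 genes described here, Themis2, C11h3orf38, Clec2g, Apol3l1, Hivep1, Rnf19a and Spsb1, are less known genes whose levels in cultured rat astrocytes were higher with interferon-γ and lower again when a compound called GW was added. They were picked by name, with the interferon-γ and GW comparisons of the same arrays known, from 18166 genes with a value, and each of the 7 had at least 1 array row paired with that gene alone. RNA was measured on 12 whole-transcript arrays, 3 in each of 4 groups, from primary astrocytes of the cerebral cortex of Sprague-Dawley rat pups 1 day old, kept in serum-free medium for 2 days, a step meant to remove microglia and meningeal cells. The groups received SHP siRNA plus both agents (siSHP_IFNg_GW), control siRNA with interferon-γ and GW (siCon_IFNg_GW), control siRNA with interferon-γ (siCon_IFNg) and control siRNA with neither agent (siCon). Treatment lasted 3 h, and every group carried a transfected siRNA. No array had untransfected cells, GW alone or SHP siRNA without GW. The labels do not say what GW is or whether the arrays numbered 1 to 3 came from separate cultures, so errors and p-values describe array-to-array spread that could be technical. The study's text says that 4 arrays of an earlier series were analysed again, without saying which these are.

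Interferon-γ signals through a surface receptor that works with JAK kinases. Many of its target genes carry GAS elements, and interferon regulatory factors such as Irf1 bind another element, the ISRE. In astrocytes this pathway is known for switching on chemokines, antigen presentation genes and feedback inhibitors. SHP was read as small heterodimer partner, encoded by Nr0b2, a nuclear receptor that lacks a DNA-binding domain and acts as a corepressor. The 7 genes have unlike products. Themis2 encodes a signalling scaffold, Clec2g a C-type lectin-like surface protein, Apol3l1 an apolipoprotein L protein and Hivep1 a transcription factor. Rnf19a and Spsb1 encode 2 proteins of ubiquitin ligases, and C11h3orf38 a protein named after an open reading frame.

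The RefSeq promoter table of the rat build GRCr8 held 6 of the 7 genes, all but Rnf19a. The 250 bases before the listed start site were searched on both strands for 4 motifs: GAS (TTCNNNGAA), the ISRE core (GAAA, any 2 bases, GAAA), AP-1 (TGANTCA) and NF-κB (GGG, any 2 bases, TT, any base, CC). A GAS match lay in 1 of the 6 windows, that of Themis2, against 7.67% of 33469 rat promoters. An ISRE core match lay in 1 of the 6, that of Clec2g, against 3.41% of them. With so few windows, 1 match cannot be told apart from these shares. Neither match overlapped another searched motif. AP-1 and NF-κB letters were in 0 of the 6 windows, against 6.34% and 4.36% of all promoters. The 2 windows with a match are printed to show it in place; capitals mark the motif, which is on the opposite strand in Clec2g.
Themis2, chr5:150290344-150290593, minus strand: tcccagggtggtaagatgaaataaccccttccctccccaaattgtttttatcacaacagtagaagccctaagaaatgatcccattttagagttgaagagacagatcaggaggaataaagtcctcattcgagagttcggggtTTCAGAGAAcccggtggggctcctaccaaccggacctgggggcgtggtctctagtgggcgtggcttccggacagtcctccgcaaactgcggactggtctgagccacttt
Clec2g, chr4:164303643-164303892, plus strand: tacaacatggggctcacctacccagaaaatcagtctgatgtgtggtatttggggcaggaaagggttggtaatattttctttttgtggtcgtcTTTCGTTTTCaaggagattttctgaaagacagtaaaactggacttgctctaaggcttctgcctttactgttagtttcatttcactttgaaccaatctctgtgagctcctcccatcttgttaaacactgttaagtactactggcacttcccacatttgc
The Themis2 match ended 100 bases before the start site and the Clec2g match 148 bases before it. A match of letters describes the window and does not show that a factor binds there.

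The values are log2 expression, so a difference of 1 is a doubling. Levels of different genes are not compared with each other, since each comes from its own probes. The background level was set at 5.39, the 95th percentile of the mean levels of 227 odorant and pheromone receptor genes (olfactory and vomeronasal). All 84 values of the 7 genes lay above it, the lowest being that of Themis2 in siCon replicate 3. The arrays numbered 1 stood apart from numbers 2 and 3 in all 4 groups, so values are given by number, and tests also without number 1. The siRNA target Nr0b2 lay between 4.59 and 5.12 on all 12 arrays, under that background level, so these values cannot show whether the SHP siRNA lowered it. Microglia markers were well above background, with array medians of 8.42 to 9.44, and fewer cells of a type cannot be told apart from less RNA per cell in these cultures.

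Themis2 encodes a scaffold of the THEMIS family that, in mouse, works in B cells and macrophages downstream of antigen and Toll-like receptors. It read 6.997, 7.64 and 7.66 in siSHP_IFNg_GW arrays 1, 2 and 3, 6.48, 5.68 and 5.71 in siCon_IFNg_GW, 7.56, 8.42 and 8.20 in siCon_IFNg, and 6.35, 5.67 and 5.54 in siCon. Each siCon_IFNg array was above each siCon and siCon_IFNg_GW array, and the last 2 groups overlapped. In numbers 2 and 3 siCon was close to background, while number 1 began higher and reached a lower level with interferon-γ. The siCon_IFNg_GW mean differed from that of siCon_IFNg by -2.10 (4.30-fold lower), and the siCon_IFNg mean was above that of siCon by 2.20 (4.60-fold). With GW the level was 0.13, 0.01 and 0.16 above siCon of the same number, close to the untreated level in each set. In numbers 2 and 3 both groups lay close to background, which limits how far apart they could read.

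**Figure D1:**
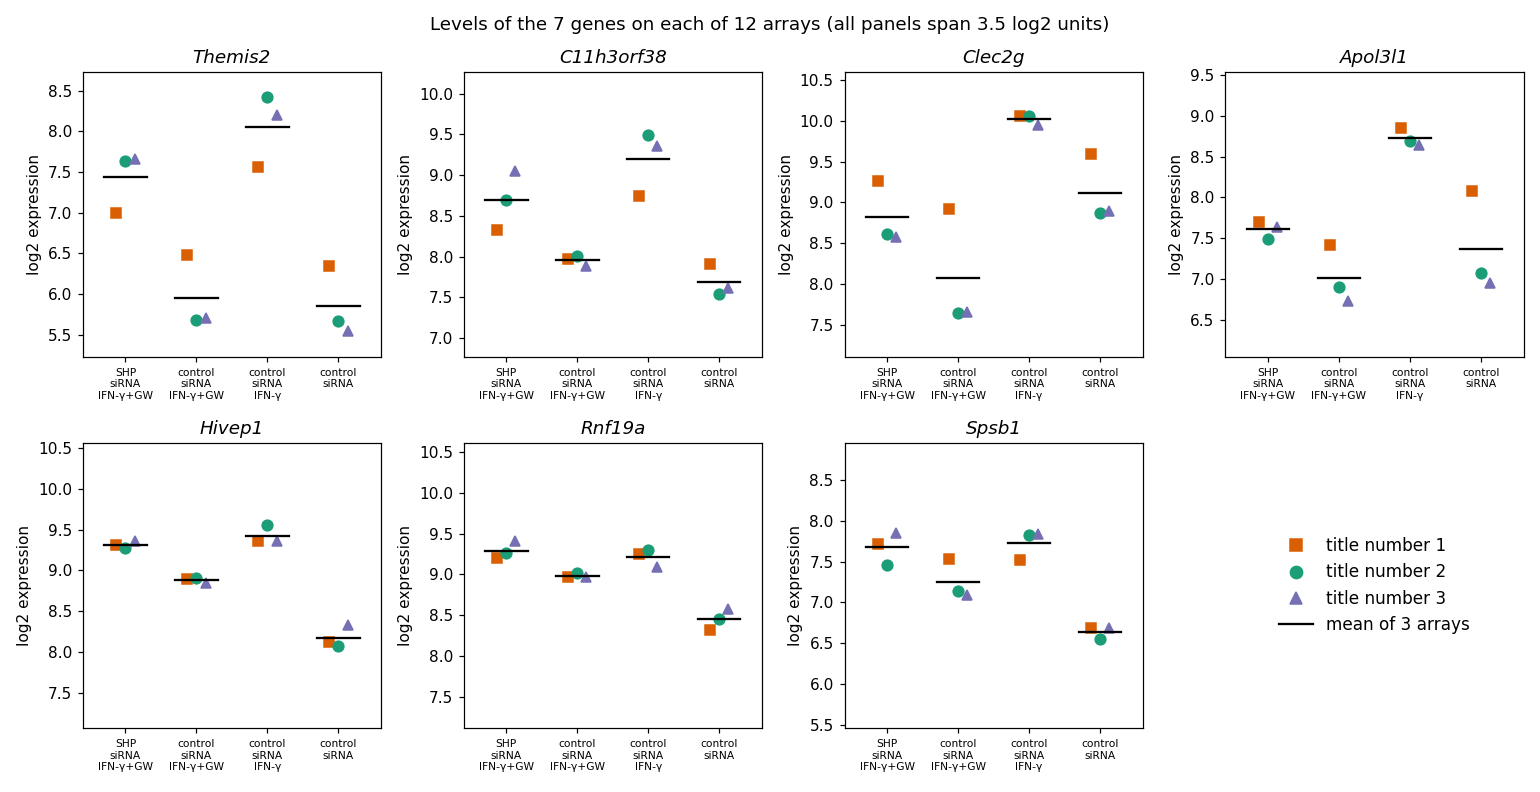
Log2 expression of the 7 genes on each of the 12 arrays, by group, with symbols for the title number and a line for the mean of 3 arrays; every panel spans the same number of log2 units. In all 7 panels the siSHP_IFNg_GW mean lies above the siCon_IFNg_GW mean, by 0.31 (Rnf19a) to 1.48 (Themis2).

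Clec2g encodes a C-type lectin-like surface protein that RefSeq also lists under the name Clr-b. In mouse, the protein of that name is a ligand of an inhibitory receptor of natural killer cells. The shared name does not show that rat Clec2g has that role, which was not tested. Clec2g read 9.26, 8.61 and 8.58 in siSHP_IFNg_GW, 8.92, 7.65 and 7.65 in siCon_IFNg_GW, 10.06, 10.06 and 9.96 in siCon_IFNg, and 9.59, 8.87 and 8.89 in siCon. The 3 siCon_IFNg arrays stood above all others, and number 1 was the highest array in each of the other groups. With GW, Clec2g was below its untreated level: siCon_IFNg_GW minus siCon of the same number was -0.67, -1.23 and -1.24, although the groups overlapped through number 1. The mean difference of siCon_IFNg_GW from siCon_IFNg was -1.95 and that of siCon_IFNg from siCon 0.91. With SHP siRNA it was still below siCon_IFNg, with groups that did not overlap and a mean difference of -1.21.

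Apol3l1, listed in RefSeq also as Apol3, belongs to the apolipoprotein L family, whose human members include interferon-inducible proteins that act on membranes. It read 7.69, 7.495 and 7.64 in siSHP_IFNg_GW, 7.41, 6.90 and 6.73 in siCon_IFNg_GW, 8.85, 8.69 and 8.64 in siCon_IFNg, and 8.08, 7.07 and 6.95 in siCon. Again siCon_IFNg stood above all other arrays, and siCon replicate 1 was 1.07 above the mean of siCon replicates 2 and 3. The siCon_IFNg_GW mean differed by -1.71 from that of siCon_IFNg, and the siCon_IFNg mean by 1.36 from that of siCon. Against siCon of the same number the siCon_IFNg_GW values differed by -0.67, -0.17 and -0.22, lower in each number. A second array row for Apol3l1 gave smaller differences, 0.20 for siSHP_IFNg_GW from siCon_IFNg_GW, -0.855 for siCon_IFNg_GW from siCon_IFNg and 0.95 for siCon_IFNg from siCon. On that row siCon_IFNg_GW was not below siCon (mean difference 0.10), so the low level of Apol3l1 with GW relative to siCon rests on 1 of its 2 rows. Probes of this gene family and of the Clec2 family may also read near-identical copies, which the files do not resolve.

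C11h3orf38 carries the rat symbol of the human open reading frame C3orf38. It read 8.33, 8.69 and 9.06 in siSHP_IFNg_GW, 7.97, 8.005 and 7.89 in siCon_IFNg_GW, 8.74, 9.49 and 9.35 in siCon_IFNg, and 7.91, 7.54 and 7.62 in siCon. Its order of groups was that of Themis2, with siCon_IFNg above siCon and siCon_IFNg_GW without overlap. The siCon_IFNg_GW arrays were nearly equal, with an SD of 0.059 (n = 3), against an SD of 0.40 in siCon_IFNg. The mean differences were -1.24 for siCon_IFNg_GW from siCon_IFNg and 1.504 for siCon_IFNg from siCon, and siCon_IFNg_GW was 0.06, 0.46 and 0.27 above siCon of the same number.

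Hivep1 encodes a large zinc finger protein that binds DNA motifs like those of NF-κB. It read 9.31, 9.28 and 9.36 in siSHP_IFNg_GW, 8.89, 8.91 and 8.85 in siCon_IFNg_GW, 9.36, 9.55 and 9.36 in siCon_IFNg, and 8.12, 8.07 and 8.32 in siCon. The values fell into 3 separate levels: siCon lowest, siCon_IFNg_GW in between, and siCon_IFNg and siSHP_IFNg_GW highest, with ranges that met at 9.36. Unlike in the genes above, number 1 was not apart, at most 0.10 from the mean of numbers 2 and 3 in any group. The siCon_IFNg_GW mean differed by -0.54 from siCon_IFNg and by 0.71 from siCon, and that of siCon_IFNg by 1.25 from siCon.

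Rnf19a encodes dorfin, a ubiquitin ligase of the RING-between-RING type. It read 9.20, 9.26 and 9.41 in siSHP_IFNg_GW, 8.97, 9.01 and 8.97 in siCon_IFNg_GW, 9.25, 9.30 and 9.09 in siCon_IFNg, and 8.32, 8.45 and 8.58 in siCon. Its mean difference between siCon_IFNg_GW and siCon_IFNg, -0.23, was the smallest in size of the 7, and 12.3% of all genes had a value as low or lower. The siCon_IFNg mean was 0.76 above siCon, and siCon_IFNg_GW was still 0.53 above siCon without overlap.

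Spsb1 encodes an adaptor with a SPRY domain and a SOCS box that, in mouse macrophages, brings inducible nitric oxide synthase to a ubiquitin ligase. It read 7.71, 7.46 and 7.85 in siSHP_IFNg_GW, 7.54, 7.13 and 7.09 in siCon_IFNg_GW, 7.52, 7.83 and 7.84 in siCon_IFNg, and 6.69, 6.56 and 6.68 in siCon. The siCon arrays were lowest, and the other 3 groups overlapped with their neighbours. In number 1 siCon_IFNg_GW and siCon_IFNg were 0.02 apart, against -0.69 and -0.75 in numbers 2 and 3, so that the GW difference in Spsb1 was seen in 2 of 3 sets. The mean differences were -0.48 for siCon_IFNg_GW from siCon_IFNg, 1.09 for siCon_IFNg from siCon and 0.61 for siCon_IFNg_GW from siCon.

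**Figure D2:**
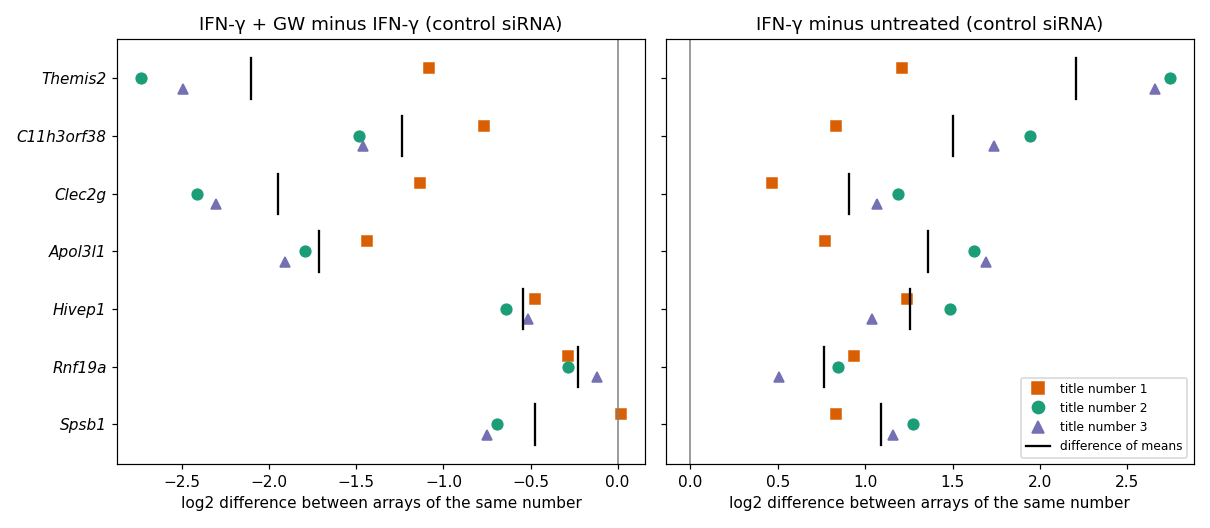
Log2 differences between arrays of the same title number for the 7 genes, with siCon_IFNg_GW minus siCon_IFNg on the left and siCon_IFNg minus siCon on the right; black lines mark the difference of group means. For Themis2, C11h3orf38, Clec2g, Apol3l1 and Spsb1 the differences of number 1 are the smallest in size in both panels, for Themis2 -1.08 and 1.21 and for Spsb1 0.02 and 0.83.

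These 2 comparisons chose the genes, so their counts are a description. Between siCon_IFNg_GW and siCon_IFNg, 6 of the 7 genes had lower values without overlap (7.24% of all genes), and between siCon_IFNg and siCon all 7 had higher values without overlap (3.59% of all genes). Set against siCon, siCon_IFNg_GW was higher without overlap for Hivep1, Rnf19a and Spsb1 (8.1% of all genes) and overlapped siCon for the other 4. Of those, Themis2 and C11h3orf38 were above siCon in each of the 3 numbers, and Clec2g and, on its main row, Apol3l1 were below it in each. Apart from Clec2g (-1.04), the mean differences of these 4 ran from -0.35 for Apol3l1 to 0.27 for C11h3orf38. Of all genes, 5.85% had a lower value than Apol3l1 and 91.8% a lower value than C11h3orf38. Comparisons that share a group share its arrays, and their values are only set side by side.

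The comparison of siSHP_IFNg_GW with siCon_IFNg_GW asks whether cells transfected with SHP siRNA still had the lower levels seen with GW. All 7 genes had a higher mean with SHP siRNA, and on the rows used each was higher in 3 of 3 numbers. On the second Apol3l1 row, number 2 read 7.21 in both groups, and the groups overlapped. The median difference was 0.60, against -0.02 over all genes, of which 42.7% were positive. Themis2 differed most, by 1.48 ± 0.31 (SE, n = 3 arrays per group), with a 95% interval of 0.80 to 2.16. Clec2g differed by 0.74 ± 0.33, C11h3orf38 by 0.74 ± 0.21 and Apol3l1 by 0.60 ± 0.27. Hivep1 differed by 0.43 ± 0.09, Spsb1 by 0.42 ± 0.15 and Rnf19a by 0.31 ± 0.10. Over all 12 arrays none of the 7 passed the test across all genes (limma, Benjamini-Hochberg adjusted p = 1.00 for each). The errors and the interval above are from this fit, which ignores the title number. With title number as a block the SE was 0.19 for Clec2g and 0.18 for Apol3l1, and 0.32 for Themis2. The limma adjusted p with the block was 0.51 for Themis2 and Hivep1 and 0.72 to 0.80 for the others.

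No gene of the 18166 passed in that comparison (0%), with or without the block, while 416 (2.29%), the 7 among them, had an unadjusted limma p under 0.05; 1.01% of all genes had one with a higher value. The groups did not overlap in 5 of the 7, all but Clec2g and Spsb1, against 2.24% of all genes with higher values in that way. For Apol3l1 this holds on its main row only. The siCon_IFNg_GW arrays that serve as the base here also belong to the GW comparison that chose the genes for low values in them. These counts and the p-values of the 7 genes are therefore not independent of the choice. For the same reason the reverse sign to the GW comparison is no separate evidence.

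Without the arrays numbered 1, with 2 arrays per group, 4 of the 7 genes passed as higher with SHP siRNA, against 1.35% of all genes called higher. This fit left out the set with the smallest differences of these 4 genes. Its base is still siCon_IFNg_GW, so its p-values for the 7 genes are not independent of the choice either. Without number 2, and likewise without number 3, 0 of the 7 passed. Themis2 differed by 1.96 (3.89-fold, limma adjusted p = 4.60e-05), Clec2g by 0.94 (adjusted p = 6.94e-04), Apol3l1, on its main row, by 0.75 (adjusted p = 0.0072) and C11h3orf38 by 0.93 (adjusted p = 0.0104). On the second Apol3l1 row, numbers 2 and 3 read 7.21 and 7.25 in siSHP_IFNg_GW and 7.21 and 6.89 in siCon_IFNg_GW. Hivep1 (0.44, adjusted p = 0.18), Spsb1 (0.54, adjusted p = 0.14) and Rnf19a (0.34, adjusted p = 0.27) did not pass. In number 1 the differences of the 4 were 0.52, 0.34, 0.28 and 0.36 in that order. Hivep1 had nearly the same difference in each number, 0.42, 0.36 and 0.52, with the smallest spread of the 7 between numbers (SD 0.08).

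**Figure D3:**
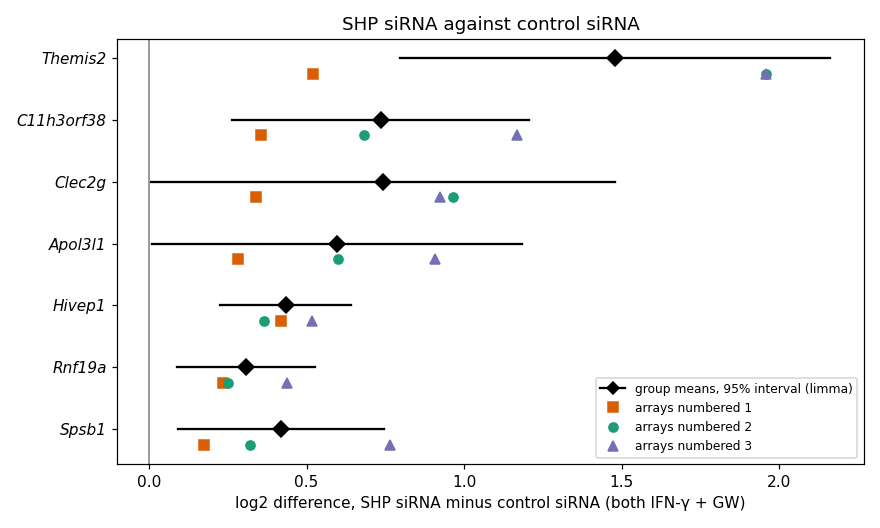
Log2 difference of siSHP_IFNg_GW minus siCon_IFNg_GW for the 7 genes: diamonds with lines are group means with the 95% interval of the limma fit over 12 arrays, and the symbols under them are the arrays of each number. On the rows used, all 21 single differences are positive, from 0.17 (Spsb1, number 1) to 1.96 (Themis2, numbers 2 and 3). On the second Apol3l1 row, not shown, the difference of number 2 is not positive.

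Relative to interferon-γ alone, the siSHP_IFNg_GW levels of the 7 genes differed in overlap. Clec2g and Apol3l1 were lower than in siCon_IFNg in all 3 numbers and without overlap, with mean differences of -1.21 and -1.12 (7.79% of all genes were lower in that way). Themis2 (-0.62) and C11h3orf38 (-0.50) were lower in each number, with groups that overlapped. Hivep1 (-0.11), Spsb1 (-0.06) and Rnf19a (0.08) had group means close to siCon_IFNg and differences of both signs over the numbers. Irf1, the interferon-γ response factor, was at 12.04, 12.34 and 12.35 in siSHP_IFNg_GW, against 11.73, 11.07 and 10.87 in siCon_IFNg_GW, without overlap (difference 1.02, limma adjusted p = 1.00, and 0.44 with the block). Without number 1 the Irf1 difference was 1.37 (limma adjusted p = 2.31e-04). The immediate-early gene Fos differed by -0.11 (adjusted p = 1.00; 0.18 without number 1, adjusted p = 0.89), with 11.70, 11.53 and 11.83 in siSHP_IFNg_GW and 12.37, 11.80 and 11.20 in siCon_IFNg_GW.

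Genes of the same families and pathways were counted in the same fits. Of the APOL family 3 relatives were measured, and 0 passed in any of the 3 comparisons over 12 arrays. Apol9a averaged 9.27 ± 0.20 in siSHP_IFNg_GW and 7.81 ± 1.07 in siCon_IFNg_GW (SD, n = 3 each), a difference of 1.46 (limma adjusted p = 1.00). Apol9a differed by -1.79 between siCon_IFNg_GW and siCon_IFNg (adjusted p = 0.16; 0.038 with the block, where 2.91% of all genes were called lower) and by 1.49 between siCon_IFNg and siCon (adjusted p = 0.63). Apol7b had 0.91, -1.20 and 1.16 in the same order, and without number 1 both Apol9a and Apol7b passed in all 3 comparisons, with the signs given. Apold1, an endothelial member of the family, had -0.06, 0.18 and 0.06.

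Of 12 other ligases of the RING-between-RING type, 0 passed over 12 arrays in the 3 comparisons. Rnf19b, the closest relative of Rnf19a, known from natural killer cells and macrophages, had larger differences than Rnf19a: 0.89 for siSHP_IFNg_GW from siCon_IFNg_GW (limma adjusted p = 1.00), -1.12 for siCon_IFNg_GW from siCon_IFNg (adjusted p = 0.16; 0.047 with the block) and 1.79 for siCon_IFNg from siCon (adjusted p = 0.089; 0.020 with the block, where 0.595% of all genes were called higher). Rnf31, the catalytic subunit of the linear ubiquitin chain complex, had 0.32, -0.39 and 0.68, and Rbck1, its partner, 0.09, -0.23 and -0.01. Without number 1, Rnf19b and Rnf31 passed in each of the 3 comparisons, and the counts over the list were 2 higher, 3 lower and 4 higher, against 1.35%, 4.98% and 3.05% of all genes.

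The measured relatives of Hivep1 and Spsb1 had smaller differences with interferon-γ. Hivep2 and Hivep3 had 0.31 and 0.17 for siCon_IFNg from siCon, and 0.13 and -0.01 for siCon_IFNg_GW from siCon_IFNg, none past the threshold with or without the block or number 1. Spsb2, Spsb3 and Spsb4 had -0.23, -0.06 and -0.11 for siCon_IFNg from siCon. Spsb4 had 0.42 for siCon_IFNg_GW from siCon_IFNg, opposite in sign to Spsb1 (limma adjusted p = 0.21; 0.038 with the block), and passed without number 1 too. Nos2, the enzyme that Spsb1 targets, had 6.79 ± 0.20 in siSHP_IFNg_GW and 5.59 ± 0.62 in siCon_IFNg_GW (SD, n = 3 each), a difference of 1.19 (adjusted p = 1.00), and rose by 1.47 without number 1 (adjusted p = 7.04e-04). Whether Hivep1 and Spsb1 differ from these relatives was not tested.

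For Clec2g, 7 relatives and receptors were measured, 3 of them above background on average. Clec2d, opposite in sign to Clec2g, had 6.22 ± 0.37 in siCon_IFNg_GW and 5.48 ± 0.14 in siCon_IFNg (SD, n = 3 each; difference 0.73, limma adjusted p = 0.078; 0.019 with the block), and passed without number 1 too; 3.64% of all genes were called higher with the block and 6.47% without number 1. Klrb1, of the receptor family that binds Clec2 proteins, was below background on average, at 4.24. For Themis2, the adaptor Grb2 (8.71), the exchange factor Vav1 (7.32) and the kinase Lyn (8.28) were expressed on average above background. Over 12 arrays 0 of 6 partners passed in the 3 comparisons. Lyn differed by -0.74 between siCon_IFNg_GW and siCon_IFNg (limma adjusted p = 0.16; 0.026 with the block). Without number 1, Lyn, the phospholipase gene Plcg2 (-0.37 over 12 arrays) and the phosphatase gene Ptpn6 (-0.54 over 12 arrays) fell with GW, while Grb2, Vav1 and Lck did not pass.

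**Figure D4:**
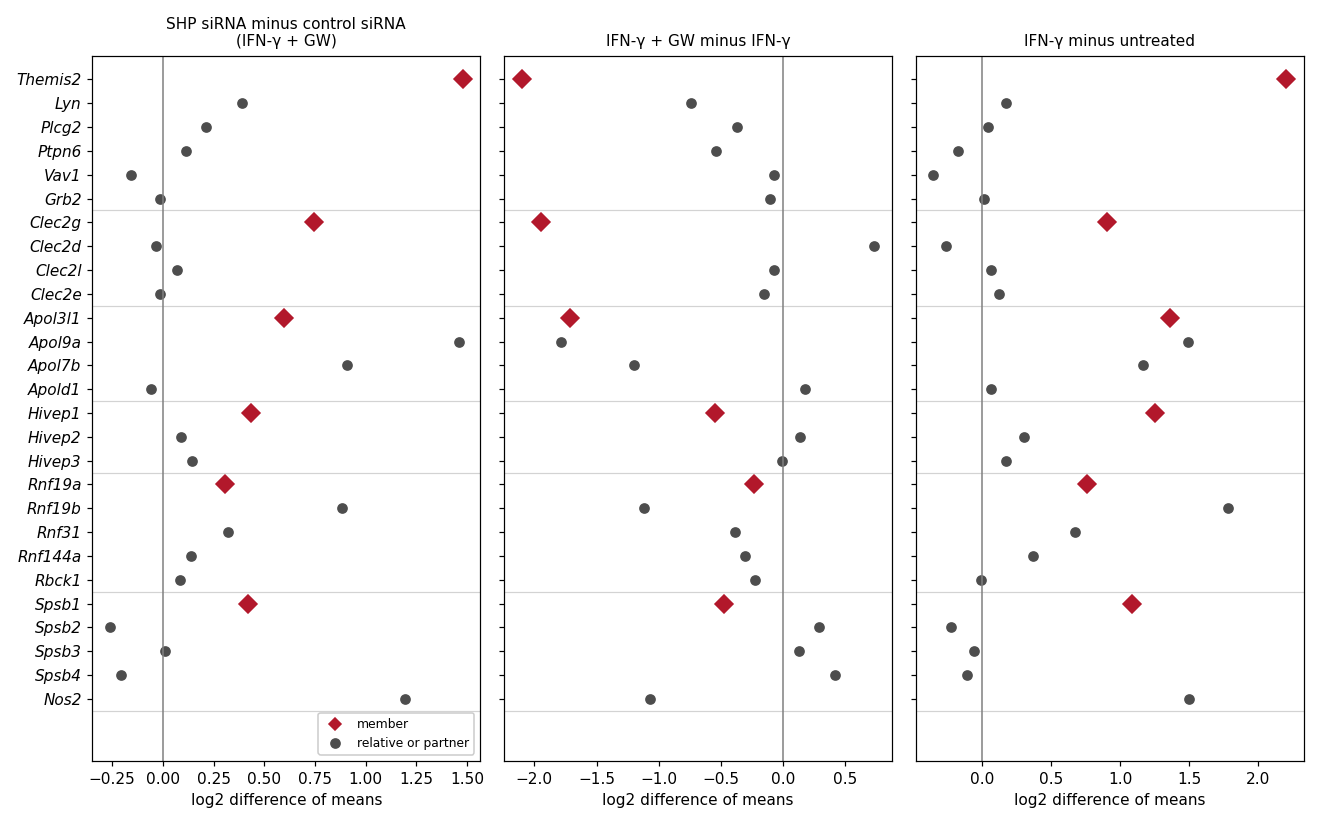
Log2 differences of group means for 6 of the 7 genes (red diamonds) and measured relatives or partners (grey circles), in families parted by lines, for 3 comparisons with a scale each. Apol9a, Apol7b and Rnf19b lie on the same side of 0 as Apol3l1 and Rnf19a in all 3 panels, while Clec2d lies at 0.73 with GW and Clec2g at -1.95.

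Markers of other cells moved with some of these values. Of 13 microglia markers, 11 were lower in siCon_IFNg_GW than in siCon_IFNg (median -0.45, 0 past the threshold over 12 arrays; 8 lower with the block). Their summed level, as log2, ran from 12.38 to 12.70 in siSHP_IFNg_GW, 12.36 to 12.57 in siCon_IFNg_GW, 12.83 to 13.12 in siCon_IFNg and 12.80 to 13.45 in siCon, with 0 of 13 markers at background. With SHP siRNA, 10 of the 13 had higher means and 3 lower (median 0.09, against -0.02 over all genes, 0 past the threshold). Tyrobp, a microglial adaptor, differed by -0.84 with GW and by 0.11 with SHP siRNA, and Ptprc by -0.89 and 0.43. The 2 markers with higher means with GW were Cx3cr1 (0.56) and Tmem119 (0.20). Of 6 neuron markers, 5 had higher means in siSHP_IFNg_GW than in siCon_IFNg_GW, 5 lower means in siCon_IFNg_GW than in siCon_IFNg, and 6 higher means in siCon_IFNg than in siCon, with medians of 0.05, -0.17 and 0.09 and 0 past the threshold over 12 arrays. Their summed level, as log2, ran from 11.94 to 11.996 in siSHP_IFNg_GW, 11.90 to 11.94 in siCon_IFNg_GW, 12.08 to 12.19 in siCon_IFNg and 12.03 to 12.13 in siCon, with 1 or 2 of the 6 markers at or under background. Most of this sum came from 1 marker, Stmn2, with group means of 11.62, 11.59, 11.80 and 11.78 in the same order. The neuronal tubulin gene Tubb3, whose mean level of 5.25 was under background, had the signs of the 7 genes in all 3 comparisons (0.76, -1.15 and 1.31). Without number 1, Tubb3 passed in each (limma adjusted p = 0.0075, 2.55e-04 and 1.89e-04). Of 6 meningeal and vascular markers, 2 were at or under background in each group, and 0 passed in the 3 comparisons over 12 arrays. Their summed level, as log2, varied widely within groups. It ran from 10.63 to 11.84 in siSHP_IFNg_GW, 10.37 to 11.95 in siCon_IFNg_GW, 10.37 to 11.998 in siCon_IFNg and 10.47 to 12.10 in siCon. The part of microglia, neuron and meningeal markers in the differences of the 7 genes was not tested. Of 8 T and natural killer cell markers, 7 were at or under background in each group with interferon-γ, Cd3e, Cd3d and Cd3g among them.

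Of the 17 measured interferon-γ signalling genes, Irf1 alone rose with interferon-γ over 12 arrays (2.91, limma adjusted p = 7.06e-04), against 0.0826% of all genes called higher. With the block 5 rose (0.595% of all genes), and without number 1, 12 rose (3.05%). Socs1 alone fell with GW over 12 arrays (-3.52, adjusted p = 0.038), against 0.253% called lower, while 3 fell with the block (2.91%) and 10 fell and 1 rose without number 1 (4.98% lower, 6.47% higher). With SHP siRNA 0 of the 17 passed over 12 arrays, and 15 had positive differences with a median of 0.41. Without number 1, 9 rose with SHP siRNA, against 1.35% of all genes. Of the 16 immediate-early genes, 6 rose with GW over 12 arrays, against 0.633% of all genes called higher, and all 16 rose with the block (3.64%) and without number 1 (6.47%). With SHP siRNA 0 of the 16 passed in any of these fits. The sign of their differences with SHP siRNA turned on number 1: over 12 arrays 13 were negative with a median of -0.15, and without number 1, 5 were negative with a median of 0.13.

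Likeness between genes was measured as Pearson's r over the 12 arrays, after the mean of each title number over its 4 groups was taken from each value. The 12 points share 4 groups and 3 sets of arrays, so r is a description. Themis2 and C11h3orf38 had r = 0.98, Hivep1 had 0.97 with Rnf19a and 0.96 with Spsb1, and Clec2g had 0.89 with Apol3l1. Clec2g was least like Rnf19a (0.11), Hivep1 (0.28) and Spsb1 (0.33), the genes that stayed above siCon with GW.

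**Figure D5:**
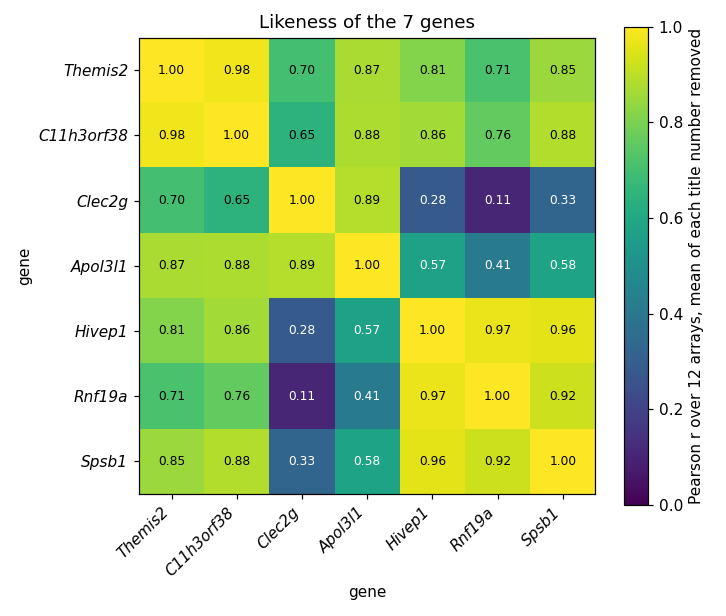
Pearson's r between each pair of the 7 genes over 12 arrays after removing the mean of each title number. Pairs run from 0.11 (Clec2g and Rnf19a) to 0.98 (Themis2 and C11h3orf38).

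Among all other genes, the closest to Themis2 were Socs1 (r = 0.996), the feedback inhibitor of JAK kinases, the G protein subunit gene Gna13 (0.988) and the antiviral gene Ifit2 (0.987). For C11h3orf38 they were the nuclear receptor gene Ppard (0.983), Sp140 (0.980) and Ly75 (0.979). For Clec2g they were the phosphatase subunit gene Ppp2r2b (0.958), the cytokine receptor gene Lifr (0.956) and Ly6e (0.955), and for Apol3l1 the glycolytic enzyme gene Pfkp (0.970), Lrrtm2 (0.968) and the immune adaptor gene Lcp2 (0.967). Hivep1 and Rnf19a were each other's closest gene. Next came Pcgf5 (0.965) and Cyria (0.963) for Hivep1, and Pakap (0.969) and the sphingosine phosphate receptor gene S1pr3 (0.968) for Rnf19a. For Spsb1 they were the AMP kinase subunit gene Prkaa2 (0.980), Litaf (0.978) and Spred1 (0.968). Without removal of the number means, r was lower for several of these pairs, for example 0.64 for Themis2 with Ifit2, 0.51 for Clec2g with Ppp2r2b and 0.08 for Apol3l1 with Lrrtm2, while Socs1 kept 0.96 with Themis2 and Prkaa2 0.98 with Spsb1.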

How the data were processed

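Transcript levels were measured on 12 arrays in 4 groups of 3. The authors deposited log2 values per array and transcript cluster; base 2 was taken from their span of 1.01 to 13.4, and background correction and normalization are not given in the sources used here. Array medians over 36685 rows ran from 5.51 to 5.67. Per the labels' protocols, Trizol served for total RNA and the labelled target was biotinylated sense cDNA. Rows with 1 gene in the platform annotation (18511) were used, the row with the highest mean where several, which left 18166 genes. Groups and numbers came from the titles, and columns of other samples numbered 0. Comparisons were fitted with limma 3.58.1 in R 4.3.3 on 4 group means over 12 arrays, with Benjamini-Hochberg adjustment over all genes and a threshold of 0.05. Arrays carry no read depth, and the number of arrays limits the precision. On simulated data with 18166 genes, 71% of changes of 1 and 92% of changes of 2 (log2) between siSHP_IFNg_GW and siCon_IFNg_GW were recovered. The simulated noise was independent between arrays, without the shared deviations of same-numbered arrays in the real values. These rates check the calculation and do not give the power of the real comparison, in which no gene passed.

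Named genes were the 7, their 3 most alike genes each, relatives on fixed lists and a few check genes. The 7 genes and the lists were chosen with earlier results of these data known. Deviations of same-numbered arrays in different groups correlated by 0.63 to 0.77 (number 1), 0.48 to 0.58 (number 2) and 0.43 to 0.55 (number 3), and the numbers were read as paired. Deviations within a group cancel out, so the offset of number 1 can by itself raise the values for numbers 2 and 3. Those values therefore do not show whether numbers 2 and 3 were paired. Of 66 array pairs none shared more than 0.136% of its values, so no array was a copy. Alternatives were a block for the number, each array or number left out, centring, a filter on dim genes, 2-group fits, means of rows and a trended robust variance. Plots were made in Python 3.11.15 using matplotlib 3.10.9.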

Additional observations from a re-analysis of the deposited data

How the results depend on the processing

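Over all alternatives run, the 7 differences between siSHP_IFNg_GW and siCon_IFNg_GW kept their positive sign, and 4 of them passed only without number 1, as given above; the cause was not tested. Leaving out arrays gave 0 to 4 of the 7 past the threshold and 0 to 267 genes in all, from 0 for both over 12 arrays; removing single arrays gave 0 of the 7 each time. For siCon_IFNg_GW against siCon_IFNg, 161 genes passed, and the count was 1189 with the replicate block, 79 with arrays centred on their medians, 4 in a fit of the 2 groups alone and 0 to 2081 with arrays left out. For siCon_IFNg against siCon, 22 genes passed, and the count was 170 with the replicate block, 7 in a fit of the 2 groups alone and 0 to 856 with arrays left out. The block changed no call among the 7 genes between siSHP_IFNg_GW and siCon_IFNg_GW, the comparison in which they were tested. With both Apol3l1 rows averaged, its difference with SHP siRNA was 0.40. Values of Themis2 in siCon lay just above background, where array values can understate a difference.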
